A study of Mus musculus with 9 samples.

Results

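CXC chemokine transcripts were examined in lung fibroblasts of aged mice 30 days after bleomycin. The genes were those rows of the deposited gene table whose symbol is one of 10 CXC ligand names, Cxcl1, Cxcl2, Cxcl5, Cxcl9, Cxcl10, Cxcl12, Cxcl13, Cxcl14, Cxcl15, and Cxcl16. All 10 were found among the 43346 genes of the table, and all 10 were among the 16877 genes tested. The libraries came from 4 aged sham mice (saline) and 5 aged bleo mice (1 intratracheal dose of bleomycin). All mice were Col1a1-GFP animals, given as 72 weeks of age by one label and as 18 months by another, and the study's methods describe them as males on an FVB background. GFP follows the activity of a collagen I promoter, so the sort for GFP+, CD45-, CD31-, EpCAM- cells was gated on use of this promoter and on the absence of leukocyte, endothelial, and epithelial surface markers. The young mice of the study were not analysed here.

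CXC chemokines are small secreted proteins that steer leukocytes through G protein-coupled receptors. Those with the ELR motif, which include Cxcl1, Cxcl2, Cxcl5, and Cxcl15, attract neutrophils through Cxcr2, and their transcripts are typically short-lived and induced by NF-κB signaling. Cxcl9 and Cxcl10 are interferon-inducible ligands of Cxcr3 on T cells. Cxcl12 binds Cxcr4 and the scavenger receptor Ackr3 and retains progenitor cells in tissue, Cxcl13 draws B cells through Cxcr5, Cxcl16 is a membrane-bound ligand of Cxcr6, and Cxcl14 is a homeostatic chemokine of epithelia and stroma.

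Levels are given as CPM (counts scaled to a common, TMM-normalized library size), and a gene was called where edgeR's quasi-likelihood test gave an FDR (Benjamini-Hochberg adjusted p over all 16877 genes) under 0.10 and the change was over 1.5-fold. The counts summed to between 49921946 and 68260600 per library, so that the 3 counts which a count of 0 allows corresponded to 0.0409 to 0.0605 CPM (counting error only). The sorted cells carried fibroblast transcripts. The summed level of 6 fibroblast identity genes was 24104 to 29724 CPM in aged sham against 54093 to 71686 CPM in aged bleo. Of the 6, 4 were called higher, the collagens Col1a1, Col1a2, and Col3a1 among them, and 1 lower, Dcn, which encodes decorin and went from 7702 to 8943 CPM in aged sham to 1422 to 4437 CPM in aged bleo. Among all genes tested, 12.3% were called higher and 11.5% lower. Epcam stayed between 0.409 and 1.20 CPM and Pecam1, which encodes CD31, between 2.44 and 6.70 CPM. Ptprc, which encodes CD45, was not absent, at 42.3 to 169 CPM in aged sham against 30.6 to 183 CPM in aged bleo, and it was highest in aged sham 4 and aged bleo 4. In the table's column names, every aged sham library and aged bleo 4 share a last digit that the remaining aged bleo libraries lack, and its meaning is not given in the sources used here. In such bulk samples, fewer cells of a type and less RNA per cell cannot be told apart.

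Of the 10 genes, 7 lie on chromosome 5. Cxcl5 (chromosome 5, 90759299 to 90761625), Cxcl15 (90794534 to 90803067), Cxcl1 (90891241 to 90893115), and Cxcl2 (90903899 to 90905909) follow each other within 147 kb, in coordinates of GRCm38. Cxcl9 (92321331 to 92328079) and Cxcl10 (92346638 to 92348889) lie within 27.6 kb on the opposite strand, and Cxcl13 (95956928 to 95961067) stands apart. Cxcl12 is on chromosome 6 (117168535 to 117181367), Cxcl14 on chromosome 13 (56288647 to 56296551), and Cxcl16 on chromosome 11 (70453983 to 70459984). All 10 are protein-coding. In the GENCODE M21 annotation, Cxcl10 lies wholly inside Art3 on the other strand (2252 bases), Cxcl16 shares 552 bases with Zmynd15 on the other strand, and Cxcl15 holds the miRNA gene Gm24322. Art3 was at 5.19 to 8.50 CPM and Zmynd15 at 14.9 to 25.7 CPM in the 9 libraries. These overlaps are of whole gene spans, and whether exons overlap was not checked. Where exons do, reads of a pair cannot be told apart without strand.

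The RefSeq promoter windows (GRCm38.p6, 250 bases before to 50 bases after the start site) held 8 of the 10 genes. Cxcl5 and Cxcl16 have no entry. The 120 bases before the start site are shown for Cxcl1 and Cxcl2, neighbouring genes with the same element, for Cxcl10, which holds a related element, and for Cxcl14, whose libraries did not overlap between the groups. Capitals mark matches to the NF-κB consensus on either strand.
Cxcl1 (chr5:90891125-90891244, plus strand): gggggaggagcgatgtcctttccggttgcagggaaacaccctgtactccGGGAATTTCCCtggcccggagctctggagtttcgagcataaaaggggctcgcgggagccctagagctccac
Cxcl2 (chr5:90903779-90903898, plus strand): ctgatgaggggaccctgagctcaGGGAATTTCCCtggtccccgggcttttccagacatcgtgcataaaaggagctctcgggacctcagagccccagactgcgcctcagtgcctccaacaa
Cxcl10 (chr5:92348890-92349009, minus strand): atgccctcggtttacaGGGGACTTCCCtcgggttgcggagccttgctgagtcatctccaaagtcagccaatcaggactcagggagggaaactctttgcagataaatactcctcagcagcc
Cxcl14 (chr13:56296552-56296671, minus strand): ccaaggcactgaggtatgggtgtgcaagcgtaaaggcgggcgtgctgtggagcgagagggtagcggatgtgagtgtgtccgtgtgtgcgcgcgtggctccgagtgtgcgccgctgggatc
The NF-κB consensus was matched in 3 of the 8 windows, those of Cxcl1 (-71 to -61), Cxcl2 (-97 to -87), and Cxcl10 (-104 to -94, and once more at -159 to -150), against 8.46% of all 32851 windows. In Cxcl1 and Cxcl2 the matched bases are identical. Other motifs were searched on both strands in the same way. TATAAA stood in 3 of 8 windows (Cxcl9, Cxcl13, and Cxcl15) and in 13.6% of all windows, and TGANTCA (AP-1) in 2 of 8 (Cxcl9 and Cxcl10) and 7.81%. TTCNNNGAA (the GAS element of STAT factors) stood in 1 of 8 (Cxcl14) and 8.3%, and GAAA tetramers 2 bases apart, as in interferon response elements, in 2 of 8 (Cxcl10 and Cxcl14) and 3.44%. The NFAT core GGAAA was matched in 6 of 8 windows and in 61.3% of all windows. It overlaps the NF-κB matches of Cxcl1 and Cxcl2 and the tetramer pairs of Cxcl10 and Cxcl14. In Cxcl10 it overlaps the NF-κB match at -159 to -150 but not the marked stretch at -104 to -94. These matches describe letters in a window and are no measure of binding.

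Levels of different genes were compared per length, with the deposited FPKM values. Cxcl1 was the most abundant of the 10 genes in every library, at 232 ± 57.8 FPKM (SD, n = 4) in aged sham and 113 ± 45.7 FPKM (SD, n = 5) in aged bleo. In aged sham it was followed by Cxcl13, Cxcl12, Cxcl2, Cxcl14, Cxcl10, Cxcl16, Cxcl5, Cxcl9, and Cxcl15. Among neighbours in this order, the ranges of Cxcl2 and Cxcl14 and those of Cxcl16 and Cxcl5 did not overlap, and all other neighbouring ranges did. In aged bleo Cxcl14 took the second place (8.11 ± 2.97 FPKM in aged sham, n = 4, and 50.0 ± 7.67 FPKM in aged bleo, n = 5), ahead of Cxcl13, Cxcl2, Cxcl12, Cxcl10, Cxcl16, Cxcl5, Cxcl9, and Cxcl15, and there only the ranges of Cxcl1 and Cxcl14 were apart (59.3 FPKM at the lowest against 58.1 at the highest).

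The make-up of the CXC chemokine transcripts is given as a description, with no test. Cxcl1 made up 65.6% ± 10.1 (SD, n = 4) of the summed FPKM of the 10 genes in aged sham and 41.9% ± 9.76 (SD, n = 5) in aged bleo. Cxcl14 made up 2.40% ± 1.01 in aged sham and 19.9% ± 5.85 in aged bleo. Neither share overlapped between the groups, since the lowest Cxcl1 share in aged sham was 55.6% and the highest in aged bleo 54.5%, and the Cxcl14 shares were at most 3.69% and at least 13.4%. Shares within a sum depend on each other, so that a rise of one gene lowers the others. The sum itself was 280 to 537 FPKM in aged sham and 205 to 372 FPKM in aged bleo, with overlapping libraries.

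**Figure D1:**
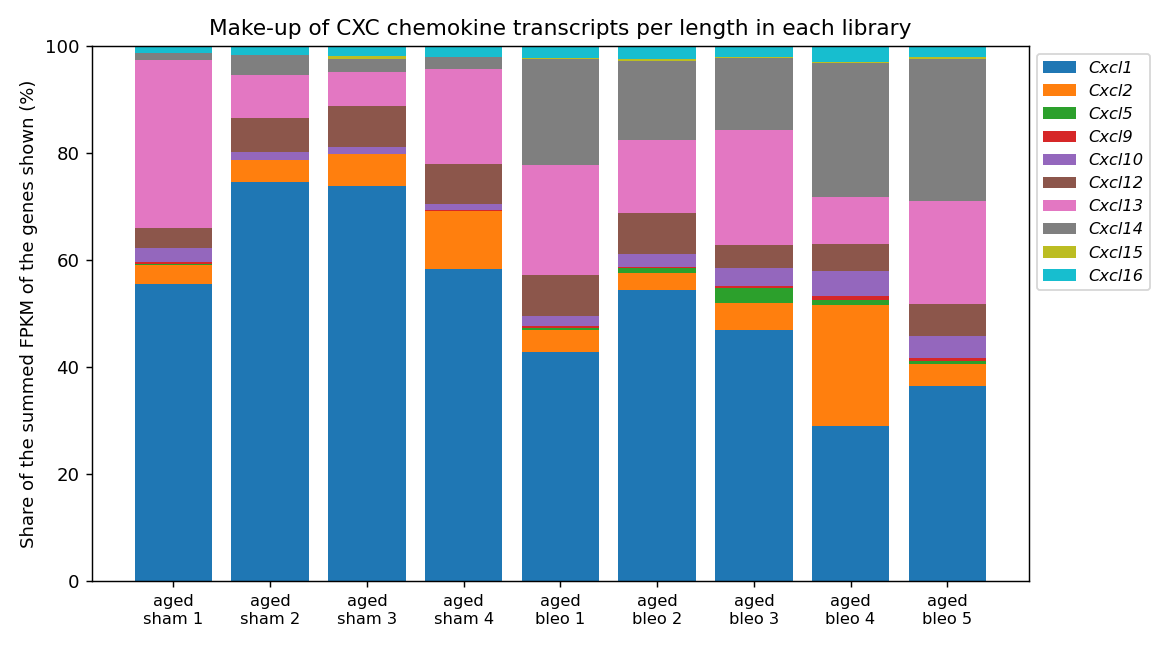
Stacked bars give the share of each gene in the summed FPKM of the 10 CXC chemokine genes, in percent, for each of the 4 aged sham and 5 aged bleo libraries. The Cxcl14 segment (grey) took at most 3.69% in aged sham and at least 13.4% in aged bleo, and the Cxcl2 segment (orange) was widest in aged bleo 4, at 22.7%.

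Between aged bleo and aged sham, 2 of the 10 genes were higher (Cxcl14 and Cxcl5), 1 was lower (Cxcl1), and 7 did not pass the test. Over all genes tested, 23.8% were called, 12.3% higher and 11.5% lower in aged bleo, so that the count of members was near this background. The libraries of the groups did not overlap for 1 of the 10 genes, against 32.2% of all genes tested. The median log2 fold change of the 10 genes was 0.18, and that of all genes tested was 0.01.

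**Figure D2:**
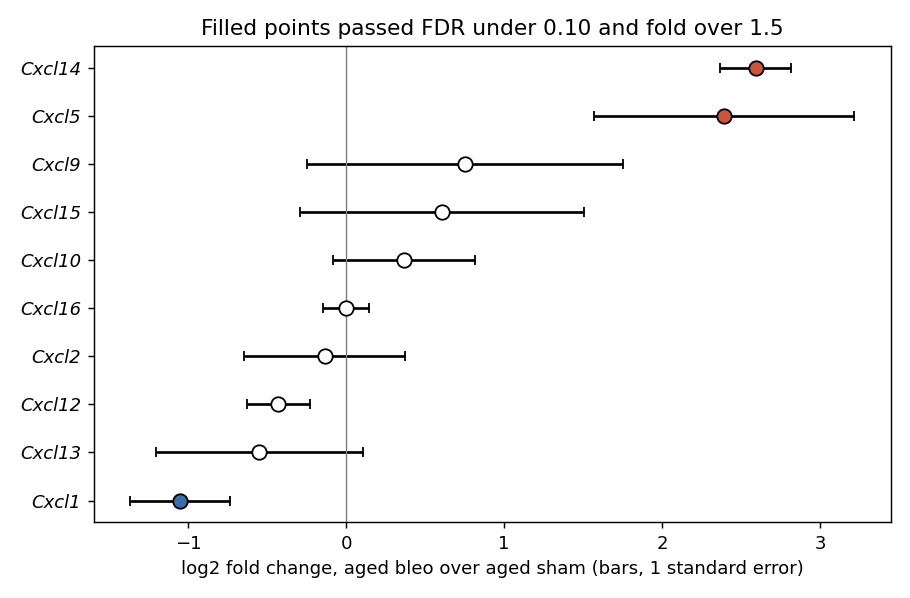
Points give the log2 fold change of aged bleo (n = 5) over aged sham (n = 4) for each CXC chemokine gene, with bars of 1 standard error from edgeR, and filled points passed both thresholds (FDR under 0.10, over 1.5-fold). Cxcl14 stands at 2.59 with a short bar, Cxcl5 at 2.39 with a long one, and Cxcl1 at -1.05.

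Of the ELR ligands, Cxcl1, a main neutrophil attractant of stromal cells, fell. It was at 681, 568, 475, and 380.3 CPM in aged sham 1 to 4 and at 256, 313, 399, 126, and 176 CPM in aged bleo 1 to 5. Only aged bleo 3 lay above the lowest aged sham library. Cxcl1 had a log2 fold change of -1.05 (standard error 0.32, FDR 0.0303), and with each library left out in turn it stayed past the thresholds, with FDR values from 0.0173 to 0.0801. The immediate early genes, which answer within minutes to stimulation and to tissue dissociation, moved in the same direction. Of 11 such genes, 9 were lower and 2 (Hspa1a and Hspa1b, heat shock genes) were higher in aged bleo, where 11.5% and 12.3% of all genes tested were. Their summed levels were 16149 to 21145 CPM in aged sham against 6866 to 13752 CPM in aged bleo. Their part in the Cxcl1 result was not tested.

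Cxcl2, the close neighbour and relative of Cxcl1, did not pass the test. Its levels were 47.0, 33.2, 41.9, and 78.3 CPM in aged sham and 27.5, 20.4, 48.5, 109, and 22.1 CPM in aged bleo. The highest library of each group was number 4 and the groups overlapped. Cxcl2 had a log2 fold change of -0.14 (standard error 0.51, FDR 0.86). Leukocyte transcripts were also highest in these libraries. The summed level of 8 neutrophil markers reached 867 CPM in aged sham 4 and, in aged bleo 4, 805 CPM, against 139 to 390.2 CPM in the other aged sham and 78.9 to 116 CPM in the other aged bleo libraries, and none of the 7 markers tested was called. Leaving out aged bleo 4 gave Cxcl2 a log2 fold change of -0.77 (FDR 0.106), and leaving out aged sham 4 gave 0.16 (FDR 0.848).

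Cxcl5, an ELR ligand made by epithelia and activated fibroblasts, was higher after bleomycin but was uneven. It was at 5.81, 1.85, 0.993, and 1.27 CPM in aged sham and at 4.99, 7.94, 40.5, 6.69, and 5.35 CPM in aged bleo. Aged sham 1 lay above 2 of the aged bleo libraries and aged bleo 3 far above all others. The log2 fold change was 2.39 (standard error 0.82, FDR 0.0486), a 5.24-fold difference. It fell to 1.33 (FDR 0.0929) without aged bleo 3, and the call was lost without aged sham 2 (FDR 0.115), aged sham 3 (FDR 0.114), or aged sham 4 (FDR 0.116). DESeq2 gave no adjusted p for this gene.

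Cxcl15, also called lungkine, is known from airway and alveolar epithelium. It was at 0.565, 0.205, 7.32, and 0.666 CPM in aged sham and at 1.36, 4.16, 3.75, 2.97, and 4.36 CPM in aged bleo. The highest value of all was thus that of aged sham 3, and the other aged sham libraries lay below every aged bleo library. Its log2 fold change was 0.60 (standard error 0.90, FDR 0.631), and it was 2.80 (FDR 0.00808) without aged sham 3. The alveolar type 2 cell gene Sftpc, for surfactant protein C, was at 57.9 CPM in aged sham 3 and at 3.08 to 5.47 CPM in the other aged sham libraries, and at 7.65 to 29.5 CPM in aged bleo. The summed level of 12 epithelial markers was 126 to 211 CPM in aged sham against 83.5 to 154 CPM in aged bleo and its largest part was Abca3, at 109 to 116 CPM in aged sham against 43.6 to 88.3 CPM in aged bleo. The part of epithelial transcripts in the Cxcl15 result was not tested.

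**Figure D3:**
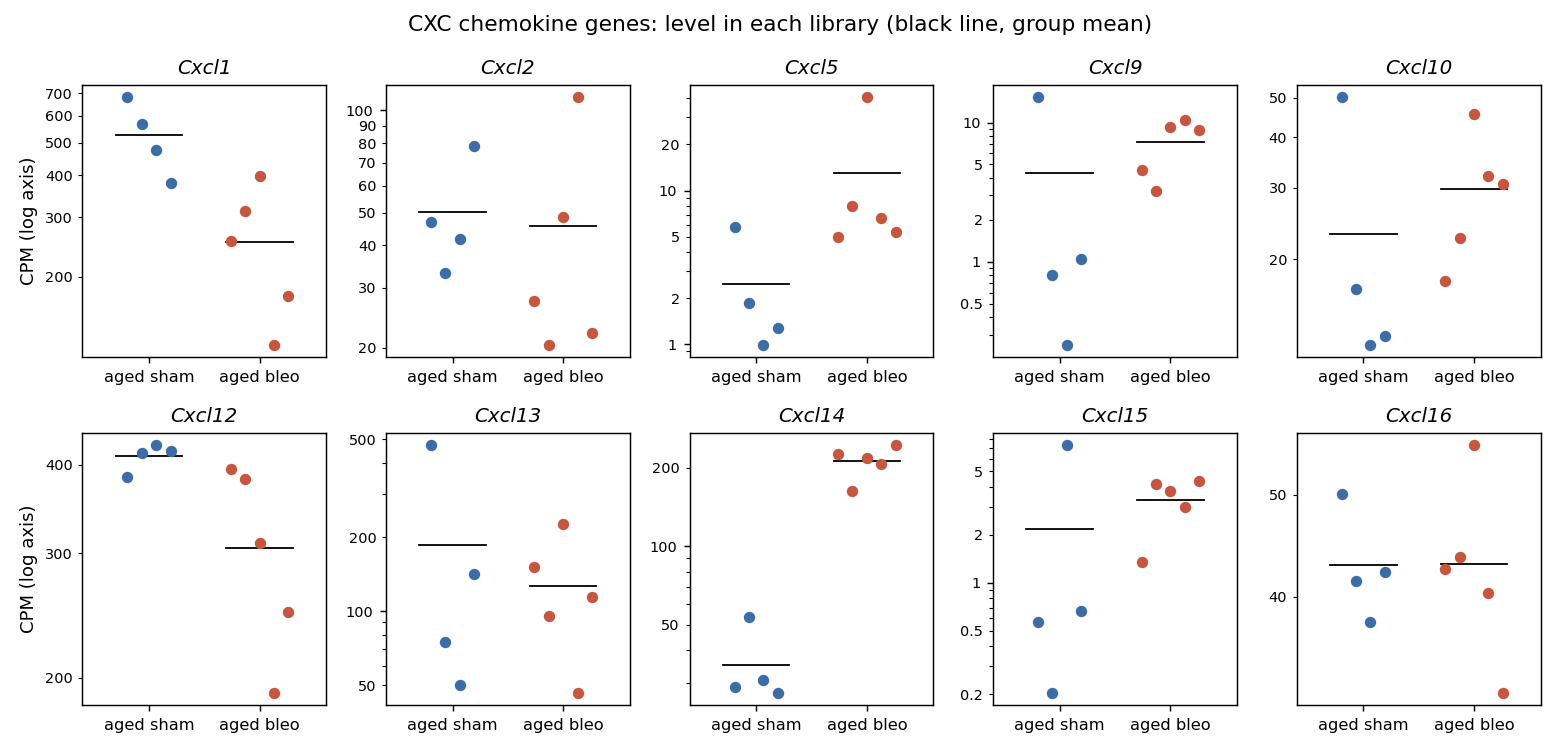
Each panel shows 1 CXC chemokine gene with its CPM on a log axis for 4 aged sham (blue) and 5 aged bleo (red) libraries, in replicate order from left to right, and a black line at the mean of each group. Cxcl14 has 27.4 to 53.7 CPM in aged sham against 163 to 245 CPM in aged bleo and is the panel in which the groups are apart, while single libraries lie far from their group for Cxcl5, Cxcl9, Cxcl13, and Cxcl15.

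The interferon-inducible ligands Cxcl9 and Cxcl10 did not pass the test over all libraries but passed it without aged sham 1. Cxcl9 was at 15.2, 0.804, 0.253, and 1.05 CPM in aged sham and at 4.59, 3.23, 9.34, 10.5, and 8.90 CPM in aged bleo. Cxcl10 was at 50.1, 16.9, 12.3, and 13.0 CPM in aged sham and at 17.7, 22.5, 45.7, 32.1, and 30.7 CPM in aged bleo. For both genes aged sham 1 lay above all aged bleo libraries and the other 3 aged sham libraries lay below them all. The log2 fold change was 0.75 for Cxcl9 (standard error 1.00, FDR 0.589) and 0.36 for Cxcl10 (standard error 0.45, FDR 0.558). Without aged sham 1 it was 3.38 for Cxcl9 (FDR 0.00533) and 1.08 for Cxcl10 (FDR 0.028). Cxcl11, known as the third ligand of Cxcr3, has the biotype polymorphic pseudogene among the deposited genes. It was likewise highest in aged sham 1, at 2.08 CPM against 0.178 to 0.99 CPM in the other 8 libraries, and was not called. B cell transcripts also were highest there, with Ms4a1, which encodes CD20, at 4.20 CPM against 0.370 to 1.09 CPM in the other aged sham libraries. Their part in these results was not tested.

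Cxcl12, the homeostatic ligand of Cxcr4 and Ackr3, was even in aged sham and varied in aged bleo. It was at 384, 416, 426, and 418 CPM in aged sham and at 395, 382, 310.0, 191, and 247 CPM in aged bleo. All but 1 of the aged bleo libraries lay below the lowest aged sham library. Its log2 fold change was -0.43 (standard error 0.20, FDR 0.121), short of the thresholds. The adventitial fibroblast markers, whose cells surround vessels and airways, fell together. All 7 were called lower in aged bleo, Pi16 and Ly6a among them, against 11.5% of all genes tested. Their summed level went from 16277 to 18365 CPM in aged sham to 2877 to 9645 CPM in aged bleo, lowest in aged bleo 4 as for Cxcl12. The summed levels of the immediate early, alveolar fibroblast, and smooth muscle lists were also lowest in that library.

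Cxcl13, the B cell attractant, gave no call. It was at 474, 74.9, 50.3, and 142 CPM in aged sham and at 152, 95.8, 226, 46.7, and 114 CPM in aged bleo. The groups overlapped throughout, and aged sham 1 was again the highest library. Its log2 fold change was -0.55 (standard error 0.65, FDR 0.544), and without aged sham 1 it was 0.51 (FDR 0.474).

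Cxcl14 rose in every aged bleo library. It was at 28.9, 53.7, 30.6, and 27.4 CPM in aged sham and at 226, 163, 218, 207, and 245 CPM in aged bleo. The lowest aged bleo library was above the highest aged sham library. The log2 fold change was 2.59 (standard error 0.23, FDR 9.05e-05), a 6.02-fold difference, and it lay between 2.49 and 2.87 in all 21 alternatives. Aged bleo 4, whose column name ends in the same digit as those of the aged sham libraries, had 207 CPM. The part of what this digit stands for was not tested. Collagen genes were higher in the same libraries, with Col1a1 at 3649 to 4559 CPM in aged sham against 13560 to 25954 CPM in aged bleo. Of 6 markers of fibrotic fibroblasts, 5 were called higher, against 12.3% of all genes tested. Among them was Cthrc1, at 13.2 to 16.4 CPM in aged sham against 97.3 to 335 CPM in aged bleo. The part of the collagen and fibrotic fibroblast genes in the Cxcl14 result was not tested.

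Cxcl16, a transmembrane chemokine that its sheddase Adam10 releases, did not pass the test. It was at 50.0, 41.4, 37.8, and 42.2 CPM in aged sham and at 42.5, 43.7, 55.8, 40.3, and 32.4 CPM in aged bleo. Its log2 fold change was 0.00 with a standard error of 0.15 (FDR 0.994), the smallest error among the 10 genes. The groups overlapped, and aged bleo held both the highest and the lowest library.

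Among the receptors of these ligands, the scavengers fell. Ackr3, which removes Cxcl12 from the tissue, was at 461, 469, 484, and 491 CPM in aged sham and at 145, 192, 117, 50.9, and 72.1 CPM in aged bleo. The groups did not overlap (log2 fold change -2.04, standard error 0.34, FDR 0.00243). Ackr1, a decoy for inflammatory chemokines, was at 9.74 to 13.1 CPM in aged sham against 1.34 to 5.92 CPM in aged bleo (log2 fold change -1.74, FDR 0.00578).

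The signaling receptors were scarce or uneven. Cxcr2 and Cxcr4 were not called (log2 fold changes -0.77 and 0.14), and both were highest in aged sham 4 (74.6 and 52.5 CPM) and aged bleo 4 (61.2 and 86.0 CPM) within their groups. Cxcr5 was at 1.24 to 2.62 CPM and was not called, and Cxcr3, at 0.0372 to 0.955 CPM, was under the count minimum. Cxcr1, at 0.394 to 1.09 CPM in aged sham against 0.714 to 2.33 CPM in aged bleo, was called higher (log2 fold change 1.17, FDR 0.0502), and this call was lost without aged sham 1, 2, or 3 (FDR 0.103 to 0.122). Cxcr6, the receptor of Cxcl16, was called higher (log2 fold change 2.36, FDR 0.068). It stood at 16.3 CPM in aged bleo 4 and at 0.452 to 3.06 CPM elsewhere, and without aged bleo 4 it was no longer called (log2 fold change 0.94, FDR 0.134), nor without any single aged sham library.

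**Figure D4:**
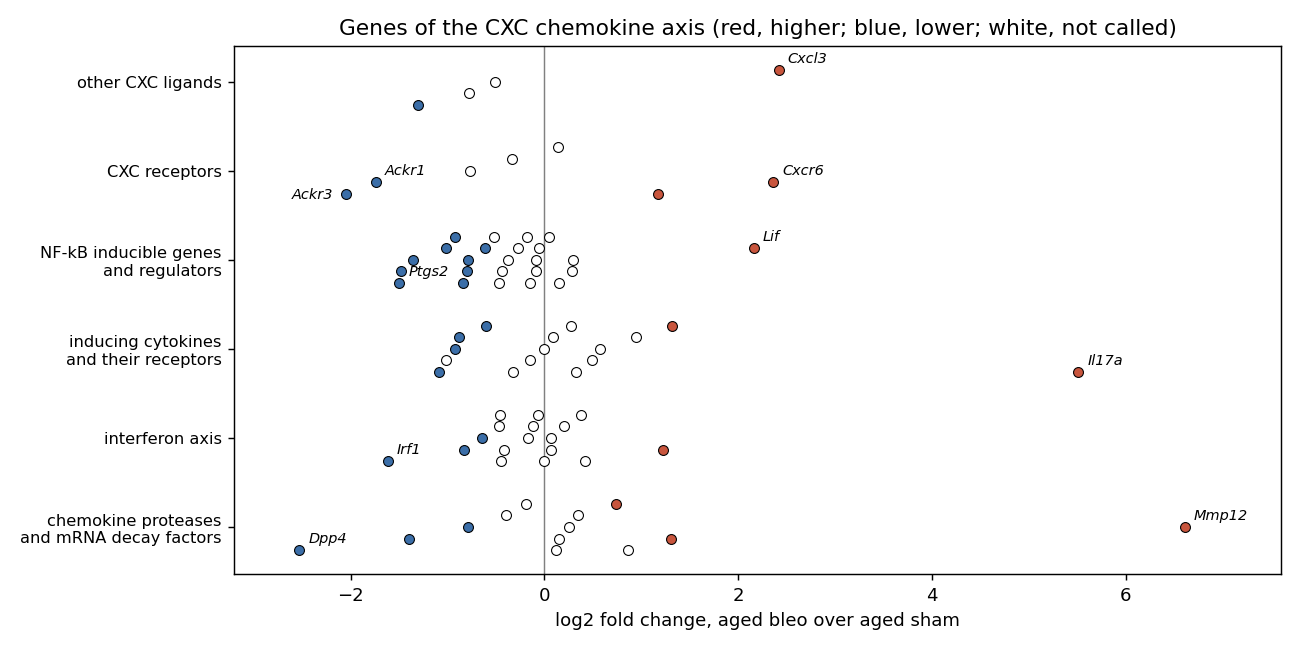
Each point is a tested gene of 6 lists around the CXC chemokines, placed by its log2 fold change of aged bleo over aged sham, with red for higher, blue for lower, and white for not called. Of the 81 genes tested in the lists, 10 were higher and 22 lower, where 12.3% and 11.5% of all genes tested were. Ackr3 and Dpp4 stand farthest to the left and Mmp12 farthest to the right.

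Over the 6 lists of other ligands, receptors, inducers, targets, and modifiers, 81 of 86 genes were tested and 32 were called, 10 higher and 22 lower, where 12.3% of all genes tested were called higher and 11.5% lower. Of the NF-κB inducible genes and regulators, 1 of 24 tested was higher and 9 were lower, with a median log2 fold change of -0.41 against 0.01 over all genes. Lif, an interleukin 6 family cytokine, was the one that rose, from 38.2 to 54.8 CPM in aged sham to 147 to 315 CPM in aged bleo (log2 fold change 2.16, FDR 0.000286). Ptgs2, the inducible cyclooxygenase, fell from 948 to 1338 CPM in aged sham to 302 to 539 CPM in aged bleo (log2 fold change -1.50, FDR 0.000478). Nfkbiz, a nuclear cofactor of the Il6 promoter, had a log2 fold change of -0.92 (FDR 0.00263). Il6 was at -1.48, Cebpd at -1.36, Tnfaip2 at -0.84, and Birc3 at -0.80. Icam1 (-1.01), Ccl7 (-0.79), and Tnfaip3 (-0.62) also passed, and each lost its call without aged sham 1 (FDR 0.108, 0.164, and 0.118). The same held for Icam1 without aged sham 2 (FDR 0.108), for Ccl7 without aged bleo 1 (FDR 0.101) or aged bleo 5 (FDR 0.116), and Tnfaip3 fell under the fold threshold without aged bleo 1 or aged bleo 5 (-0.56 and -0.50). The subunits Nfkb1, Nfkb2, Rela, Relb, and Rel were not called. The lower immediate early genes named beside Cxcl1 moved with this list, and their part was not tested.

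Of 16 tested inducing cytokines and their receptors, 2 were higher and 4 lower, against 23.8% of all genes called in either direction, and their median log2 fold change was 0.045 against 0.01 over all genes. Il1a was at 1.08 to 2.04 CPM in aged sham against 3.04 to 5.24 CPM in aged bleo (log2 fold change 1.32, FDR 0.00456). Il17a, whose protein stabilizes Cxcl1 transcripts, was at 0 to 0.0584 CPM in aged sham, at or under what 3 counts give, and at 0.093 to 5.51 CPM in aged bleo, with the highest value in aged bleo 4. It was called higher (FDR 0.0254), and without aged bleo 4 its average count was under the minimum. Its receptor chain Il17ra (log2 fold change -0.60, FDR 0.00502) and adaptor Traf3ip2 (-0.92, FDR 0.00296) were lower, as were Tlr4 (-0.88, FDR 0.00723) and Myd88 (-1.09, FDR 0.000133), the receptor and adaptor of endotoxin signaling. Il17ra was under the fold threshold without aged sham 4 (-0.55) and without aged bleo 5 (-0.52).

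Of 17 tested interferon axis genes, 1 was higher and 3 were lower, a count near the 23.8% called over all genes, and their median log2 fold change was -0.11. Iigp1, an interferon-induced GTPase, was at 31.5 to 74.9 CPM in aged sham against 63.9 to 149 CPM in aged bleo (log2 fold change 1.23, FDR 0.0154). Irf1, a transcription factor downstream of interferon γ, went from 343 to 510 CPM in aged sham to 80.2 to 203 CPM in aged bleo (log2 fold change -1.62, FDR 0.00243). Gbp2 (-0.83, FDR 0.0184) and Socs1 (-0.64, FDR 0.0376) also fell, the latter under the fold threshold without aged sham 2 (-0.57) or aged bleo 5 (-0.50).

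Of 13 chemokine proteases and mRNA decay factors, 3 were higher and 3 lower, against 12.3% higher and 11.5% lower over all genes, and the median log2 fold change was 0.16. Dpp4, a cell surface peptidase that trims Cxcl9, Cxcl10, and Cxcl12, was at 113, 110, 118, and 127 CPM in aged sham and at 20.6, 35.4, 26.0, 6.03, and 13.4 CPM in aged bleo. It fell by 2.53 on the log2 scale (standard error 0.41, FDR 0.0023). All aged bleo libraries were below all aged sham libraries. Zfp36 (-1.40, FDR 0.00543), which encodes the decay factor tristetraprolin, and Zfp36l2 (-0.79, FDR 0.0284) fell too. Mmp12, the macrophage elastase, rose from 0.307 to 0.623 CPM in aged sham to 34.2 to 73.9 CPM in aged bleo (FDR 1.23e-05). Macrophage markers rose in these libraries as well, with 6 of 12 called higher, against 12.3% of all genes tested. Their summed levels were 194 to 339 CPM in aged sham against 550 to 1714 CPM in aged bleo. Mmp14 (1.31, FDR 0.000213) and Adam10 (0.74, FDR 0.0023) were the others called higher.

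Of the other CXC ligands, Cxcl3 was called higher and Ppbp, a platelet chemokine, lower. Cxcl3 was at 0.214 to 1.05 CPM in aged sham and at 1.64, 0.355, 6.46, 6.06, and 1.17 CPM in aged bleo (log2 fold change 2.42, FDR 0.0534). The call was lost without aged sham 2, aged sham 3, or aged bleo 3 (FDR 0.108 to 0.127). Ppbp was at 0.993 to 4.19 CPM in aged sham against 0.504 to 1.04 CPM in aged bleo (log2 fold change -1.31, FDR 0.0399), and without aged sham 2 it was not called (FDR 0.126). Pf4 and Cxcl11 were not called, and Cxcl17 was under the count minimum.

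To see which transcripts varied with each chemokine from library to library, log2 CPM values were centred within each treatment, and Pearson's r over the 9 libraries was taken as a description with no test. Since it is taken over the same libraries, differences in cell make-up enter every such value. The genes named for each member were the 3 highest of 15269 compared. A high r is therefore in part a product of this choice. Cxcl12 was most like Bmp6 (r = 0.992), Itgbl1 (r = 0.99), and Nipal2 (r = 0.989), and among 14 marker lists it was most like the 7 adventitial fibroblast genes (r = 0.958, rho = 0.95, and r = 0.939 without aged bleo 1 and aged bleo 4). The immediate early (r = 0.895) and alveolar fibroblast (r = 0.816) lists followed, and the macrophage list ran the other way (r = -0.876). Cxcl15 was most like Slc34a2 (r = 0.99), Sftpd (r = 0.938), and Sftpb (r = 0.933), genes of alveolar type 2 cells, and most like the epithelial list (r = 0.926, rho = 0.85, and r = 0.905 without aged sham 2 and aged sham 3). Cxcl13 was most like Sh3tc2 (r = 0.987), Clu (r = 0.987), and Clca2 (r = 0.974), and most like the mesothelial list (r = 0.869, rho = 0.85, and r = 0.844 without aged sham 1 and aged sham 3). The fibroblast identity list was close behind (r = 0.803). The mesothelial list was also the nearest list for Cxcl5 (r = 0.804), Cxcl9 (r = 0.602), Cxcl10 (r = 0.636), and Cxcl16 (r = 0.652). Without the 2 libraries farthest from each gene's median, these were 0.107, 0.227, -0.0395, and 0.841. The defining mesothelial markers were low, with Msln at 3.49 to 22.6 CPM and Upk3b at 6.52 to 34.0 CPM, and none of the 6 was called.

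Cxcl2 was nearest to Samhd1 (r = 0.969), Mapk13 (r = 0.968), and Rgs14 (r = 0.965) and to the pan-leukocyte list (r = 0.866, rho = 0.633), but without aged sham 4 and aged bleo 4 the latter r was 0.283, so that it rested on these libraries. Cxcl1 was nearest to Tbc1d2b (r = 0.992), Arl5b (r = 0.99), and Spats2l (r = 0.982) and, among the lists, to the immediate early genes (r = 0.806, rho = 0.817, and r = 0.706 without aged bleo 3 and aged bleo 4), with the alveolar fibroblast (r = 0.796), fibroblast identity (r = 0.754), and adventitial fibroblast (r = 0.747) lists close behind. The macrophage (r = -0.814), pan-leukocyte (r = -0.776), and neutrophil (r = -0.744) lists ran the other way to Cxcl1. Between Cxcl1 and Cxcl2 themselves r was -0.49. Cxcl5 was nearest to A730049H05Rik (r = 0.964) and the class I genes H2-K1 (r = 0.949) and H2-Q1 (r = 0.949), with r of 0.224 to 0.528 without aged sham 1 and aged bleo 3. Cxcl9 and Cxcl10 were like each other (r = 0.897). Cxcl9 was nearest to Gm11646 (r = 0.984), Itga6 (r = 0.976), and Ptn (r = 0.972), and Cxcl10 to Ccrn4l (r = 0.965), Lacc1 (r = 0.956), and Lgals3bp (r = 0.948). Cxcl16 was nearest to Relb (r = 0.963), the NF-κB subunit, Tap2 (r = 0.949), and Col6a2 (r = 0.945). Cxcl14 was nearest to Phldb3 (r = 0.959), Lca5l (r = 0.941), and Spon1 (r = 0.939), and none of the 14 lists reached an r above 0.255 with it.

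**Figure D5:**
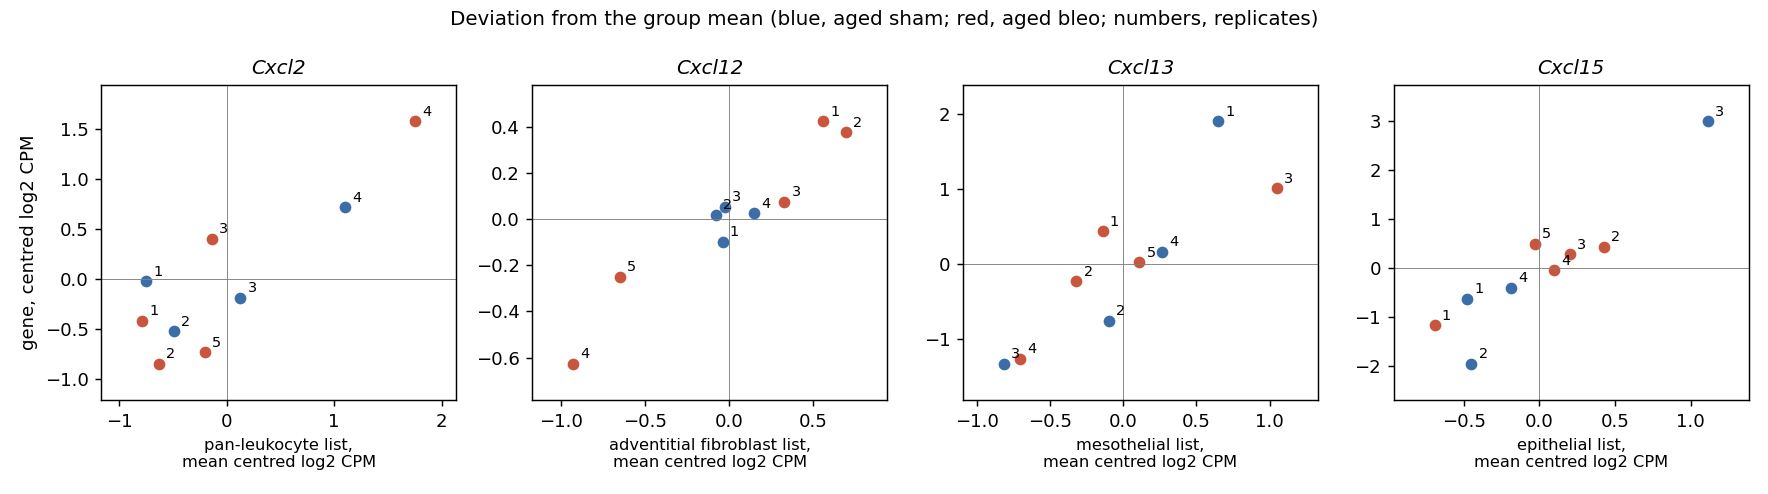
Each panel plots a chemokine gene (vertical axis) against the mean of the marker list most like it (horizontal axis), both as log2 CPM minus the mean of the library's own group, for the 4 chemokine genes whose r with such a list was over 0.85. Points are aged sham (blue) and aged bleo (red) libraries with their replicate numbers, and the Cxcl12 points lie along a line (r = 0.958) whereas those of Cxcl2 are drawn out by number 4 of each group.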

How the data were processed

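RNA-Seq libraries from polyadenylated RNA of sorted Col1a1-GFP fibroblasts were analysed, 4 aged sham and 5 aged bleo. The authors deposited a table of read counts per gene, whole numbers without normalization, and FPKM values, which they scaled to gene length and to a total 2.27 to 2.42 times the summed counts. The submitters' processing notes name bcl2fastq, STAR 2.5.2b, Subread, featureCounts, and GRCm38. Whether counting used strand is not given in the sources used here. Whether the related genes Cxcl1, Cxcl2, and Cxcl3 share reads was not checked.

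Genes averaging 25 counts or more were tested with edgeR 4.0.16 (TMM, glmQLFit and glmQLFTest, no covariate) in R 4.3.3, as the study's methods set the filter and thresholds (FDR under 0.10, fold change over 1.5). Standard errors are the absolute log2 fold change divided by the square root of edgeR's quasi-likelihood F statistic. No 2 libraries of a group agreed within sampling noise (their chi-square was 28.9 to 415 times its degrees of freedom). p-values weigh the difference between the groups against the spread between libraries. A prior count of 2 entered log2 CPM. Alternatives used DESeq2 1.42.0, limma 3.58.1 (limma-trend), other scalings, filters, and thresholds, and fewer libraries. The members and all lists were chosen with earlier results of these data known. Named are all members, the called genes and receptors of the lists, and the 3 genes with a mean of at least 1 CPM most like each member.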

Additional observations from a re-analysis of the deposited data

Results flagged for a closer look

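Among the 20 sets of CPM values (10 genes in 2 groups), 5 held a library whose gap to its nearest neighbour, as a share of the set's range, exceeded Dixon's 95% critical value. About 1 in 20 sets is flagged by chance where values are normal and sets independent, which was not tested here. Cxcl5 stood at 40.5 CPM in aged bleo 3. In aged sham 1, Cxcl9 stood at 15.2 CPM and Cxcl10 at 50.1 CPM. Cxcl15 stood at 7.32 CPM in aged sham 3. Cxcl14 stood at 53.7 CPM in aged sham 2, which is still below the 163 CPM of the lowest aged bleo library.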

How the results depend on the processing

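The direction and call of Cxcl14 and Cxcl1 held in all 21 alternatives. The number of genes called over the whole table was 4022, and it was 1785 with limma-trend on log2(FPKM + 1) and 7553 with no fold change threshold. With each library left out in turn it ranged from 3525 to 4597, the number of CXC chemokine genes called from 2 to 5, and that of the surrounding lists from 26 to 35. The 5 chemokine genes were reached without aged sham 1, and also with both aged sham 1 and aged bleo 4 left out (5), a setting chosen after seeing the data. In both cases Cxcl9 and Cxcl10 joined the called genes. limma-trend on log2 CPM also called Cxcl9 (log2 fold change 2.24, FDR 0.0992). The sign of uncalled genes was unsteady. Leaving out single libraries gave log2 fold changes of -0.77 to 0.16 for Cxcl2, -0.86 to 0.51 for Cxcl13, and -0.11 to 0.0893 for Cxcl16. Cxcl13 was at 0.72 with both aged sham 1 and aged bleo 4 left out, and Cxcl16 at -0.0067 with RLE size factors and with DESeq2 and at -0.0123 with limma-trend on log2 CPM. The causes were not tested. DESeq2 called 2 chemokine genes and gave no adjusted p for Cxcl5 or Cxcl15. Deviations of same-numbered libraries from their group means correlated at 0.092, 0.062, -0.13, and 0.326. Only aged sham 4 was closest to its own number in aged bleo. Whether same-numbered libraries were handled together is not given in the sources used here. The replicate block called 3541 genes, 29 list genes, and 2 chemokine genes, with Cxcl5 at 2.32 (FDR 0.118). The lowest count of a chemokine gene in any library was 12 (Cxcl15 in aged sham 2), so depth limits Cxcl15 most.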
